A study of Mus musculus with 12 samples.

Results

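The genes described are 8 that mouse neutrophil precursors transcribe at the promyelocyte stage, when the primary granules form: Mpo, Prtn3, Ctsg, Srgn, Fcnb, Ms4a3, Nkg7 and Igsf6. They were taken by name, and every probe set of the deposited exon array table that named only that gene was used. This gave 75 of 318760 probe sets that name a single gene, and 8 of 22296 genes. All 8 genes had kept probe sets above the level filter used for gene values (a mean log2 above 6.2592), so none was lost to it. Mpo, Prtn3, Ctsg and Srgn encode granule contents and Fcnb a secreted lectin of myeloid cells, whereas Ms4a3, Nkg7 and Igsf6 encode membrane proteins. The name granule gene fits Ms4a3 and Igsf6 only by the stage at which they are transcribed. Nkg7 encodes a granule membrane protein, but one best known from natural killer and T cells.

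The 12 arrays measured total RNA of primary bone marrow cultures from female mice of the strain given as C57B/6, aged 12 weeks and treated with 5-FU, a drug that kills cycling cells and leaves early progenitors. Every culture, controls included, was transduced with MSCV retroviral constructs, overexpressed HOXA9 and was grown with IL3, SCF and IL6. The second vector was the empty MIY vector (HOXA9+MIY, the control), Meis1 (HOXA9+MEIS1) or Meis1 with its homeodomain deleted (HOXA9+MDHD). Each of the 3 conditions had 4 arrays, 2 at week 3 and 2 at week 4 of culture, from experiments the series text calls independent; whether both weeks sample the same cultures is not stated in the sources used here, so the p-values measure the spread between these arrays. The cells are transduced bone marrow cells grown with cytokines, not neutrophils from an animal. RNA came from the whole culture: fewer cells of a type and less RNA per cell cannot be told apart.

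Primary or azurophil granules are the first granules a neutrophil precursor packs. Their serine proteases are made as inactive precursors and trimmed by the dipeptidyl peptidase Ctsc. They are held in the granule on the serglycin proteoglycan, beside the peroxidase that turns hydrogen peroxide into hypochlorous acid. Their genes are switched on by Cebpa, Spi1 (PU.1), Runx1 with Cbfb, and Myb, and are switched off as cells go on to make the secondary granules under Cebpe. In leukaemias driven by Hoxa9 and Meis1 the cells are held near this progenitor stage.

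The levels of Hoxa9 and Meis1 were first set beside the vector labels. Hoxa9 was at 13.29 in HOXA9+MIY, 13.35 in HOXA9+MDHD and 13.37 in HOXA9+MEIS1 and was not called in any comparison. Every culture overexpressed HOXA9, so this level cannot check which condition an array belongs to. Meis1 was 7.31-fold higher in HOXA9+MEIS1 and 6.03-fold higher in HOXA9+MDHD than in HOXA9+MIY (adjusted p = 1.16e-07 and 7.75e-07, limma). Its value, 9.71 in HOXA9+MEIS1 and 9.43 in HOXA9+MDHD, covers the whole gene and was not read at the homeodomain. The Meis1 value thus sets both apart from HOXA9+MIY but cannot tell the full-length from the deleted form. Pairs of arrays correlated between 0.9671 and 0.9845 over the probe sets.

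Stretches upstream of 4 members are shown because these genes bracket the responses described below: Fcnb and Mpo had the largest differences, while the protease genes Prtn3 and Ctsg had small ones. Each is the RefSeq sequence of mouse build GRCm38.p6 from 250 to 61 bases before a transcript start, on the gene's own strand, and RefSeq held such a window for 8 of 8 members. For Fcnb that start lies 32 bases inside the outer end of the gene record given below, and for Igsf6 51 bases. Srgn has 2 windows, and the counts take its first. Capitals mark AGGAAG or its complement CTTCCT, the core of sites bound by ETS factors such as PU.1.
Fcnb: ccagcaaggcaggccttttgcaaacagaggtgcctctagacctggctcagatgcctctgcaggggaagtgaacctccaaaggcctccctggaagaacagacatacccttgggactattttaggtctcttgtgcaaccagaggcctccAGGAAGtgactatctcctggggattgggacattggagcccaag
Mpo: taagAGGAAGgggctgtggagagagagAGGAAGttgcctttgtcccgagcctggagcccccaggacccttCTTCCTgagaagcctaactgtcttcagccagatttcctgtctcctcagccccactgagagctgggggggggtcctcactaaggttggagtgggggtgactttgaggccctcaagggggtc
Prtn3: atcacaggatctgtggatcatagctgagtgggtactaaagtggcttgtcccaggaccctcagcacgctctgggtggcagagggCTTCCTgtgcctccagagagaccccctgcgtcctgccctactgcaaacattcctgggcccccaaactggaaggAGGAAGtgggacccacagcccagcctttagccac
Ctsg: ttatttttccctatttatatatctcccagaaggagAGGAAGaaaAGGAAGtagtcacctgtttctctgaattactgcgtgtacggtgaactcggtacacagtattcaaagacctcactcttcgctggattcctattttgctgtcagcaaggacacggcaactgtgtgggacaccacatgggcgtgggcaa
These windows lie at chr2:28084939-28085128 on the minus strand (Fcnb), chr11:87793534-87793723 on the plus strand (Mpo), chr10:79879417-79879606 on the plus strand (Prtn3) and chr14:56102635-56102824 on the minus strand (Ctsg). The motifs were chosen after these sequences were seen, so the shares that follow are description and no test of enrichment. AGGAAG, searched on both strands, was present in the windows of Fcnb, Mpo, Prtn3, Ctsg and Ms4a3, 5 of 8 members, against 22.7% of 32851 such windows of all genes. The genes with it include Fcnb and Mpo, which fell most, and Ctsg, which was not called between conditions. The C/EBP core GCAAT was in 0 of 8 windows (18.8% of all), the RUNX core TGTGGT in Nkg7 and Ctsg (11.0% of all), and the MYB core AACNG in all members but Ms4a3 (64.9% of all). The MEIS motif TGACAG was in Ctsg (12.5% of all), and TTTATNG, a HOX motif, in Srgn (7.34% of all). The second window of Srgn, at chr10:62507818-62508007, also held TGTGGT and TGACAG. Each of these was searched on both strands, none of the AGGAAG matches overlapped another motif, and a match or its absence describes only the letters of these windows.

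With full-length Meis1 added to Hoxa9, 4 of the 8 genes were lower and 0 higher than in HOXA9+MIY by limma (Benjamini-Hochberg adjusted p under 0.05 over 20711 genes): Fcnb by 5.41-fold, Mpo by 3.41-fold, Igsf6 by 2.31-fold and Ms4a3 by 1.22-fold. Of all genes tested 5.55% were called lower and 5.29% higher in that comparison. For Fcnb, Mpo and Igsf6 every HOXA9+MEIS1 array was below every control array, 3 of 8 members beside 5.95% of all genes. The 8 members had a median log2 difference of -0.23, beside -0.0056 over all genes, and 5 of 8 were below 0. With homeodomain-deleted Meis1, Prtn3 and Fcnb were called lower, 2 of 8 beside 0.999% of all genes, and 0 of 8 were called higher (0.913% of all genes). The arrays did not overlap, with HOXA9+MDHD lower, for Mpo, Prtn3 and Igsf6, 3 of 8 beside 2.55%. There the median was -0.42 beside -0.013 over all genes, 7 of 8 members were below 0, and 6 of 8 had an unadjusted p under 0.05, beside 2770 of 20711 genes. Both comparisons use the same 4 HOXA9+MIY arrays, so their values are set side by side and not counted as independent.

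**Figure D1:**
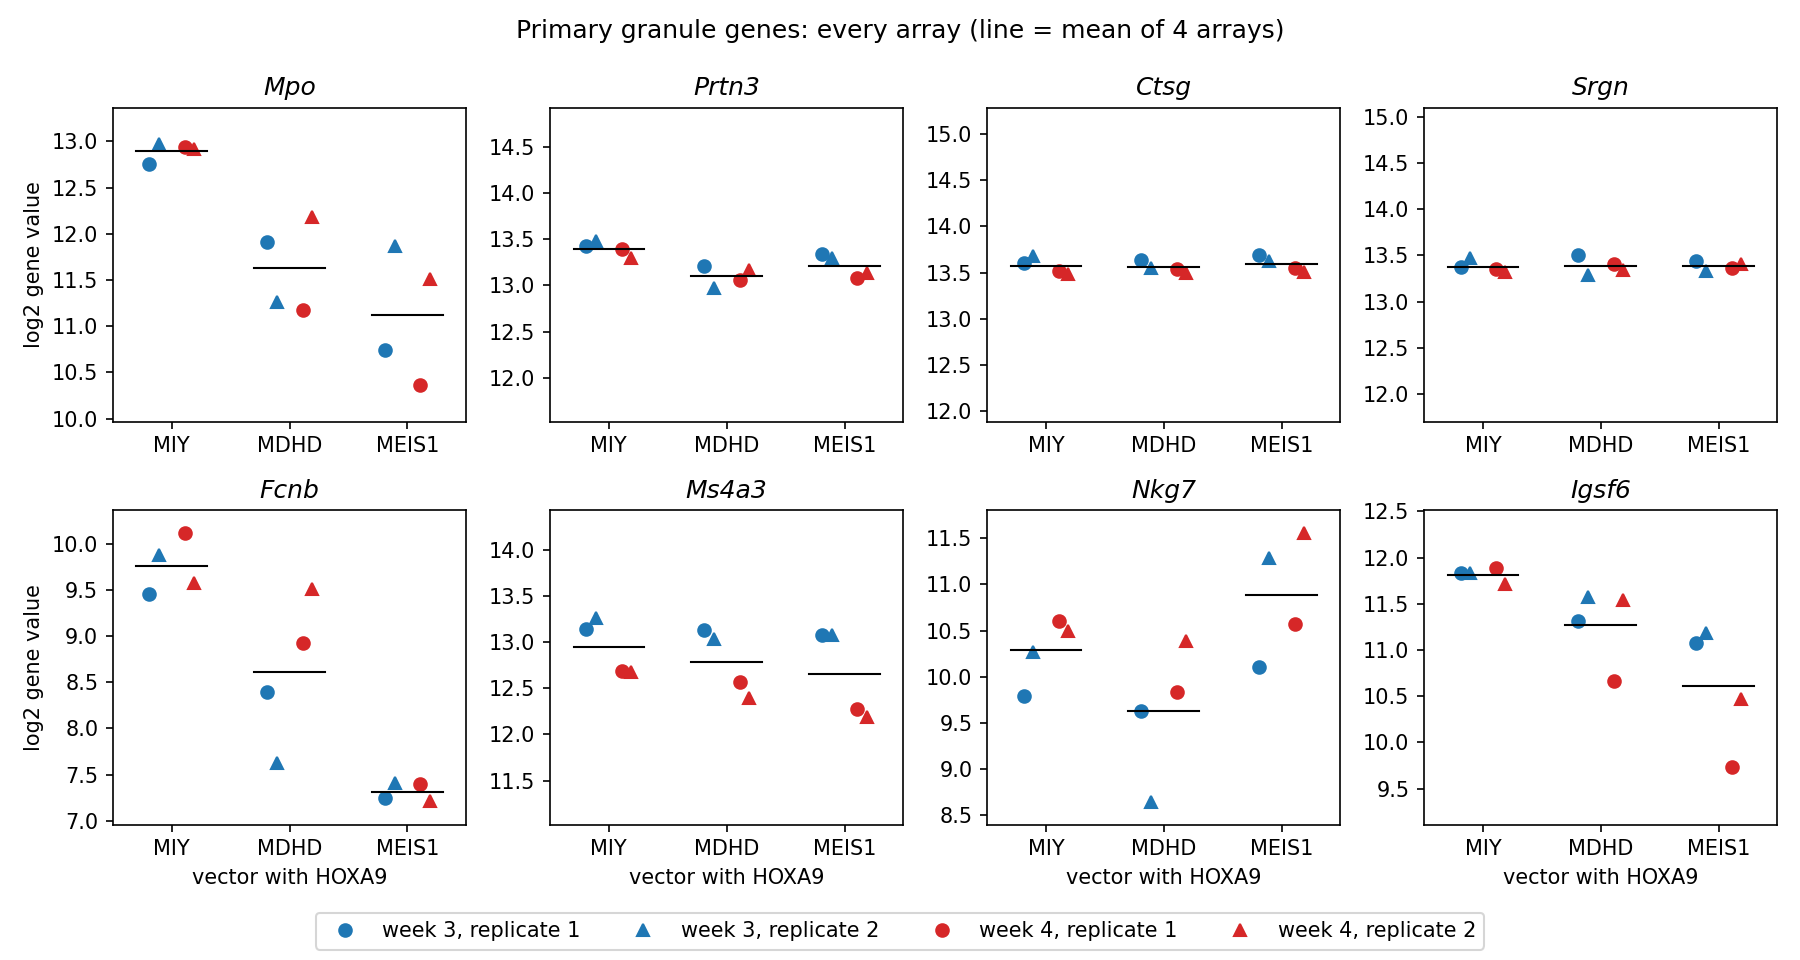
Log2 gene value (vertical axis, its range set for each gene) of the 8 genes on each of the 12 arrays by the vector given with HOXA9, marked by week, with lines at the mean of 4 arrays. The HOXA9+MIY arrays of Mpo (12.75 to 12.97) and Igsf6 (11.71 to 11.89) lie close together above the other arrays, and the Ms4a3 points separate by week.

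Mpo (chr11:87793784-87804412, GRCm38.p6) encodes myeloperoxidase, the haem peroxidase of the primary granule. Its log2 gene value in HOXA9+MIY was 12.75 and 12.97 at week 3 and 12.94 and 12.92 at week 4. In HOXA9+MEIS1 it was 10.74 and 11.87 at week 3 and 10.36 and 11.51 at week 4. In HOXA9+MDHD it was 11.91 and 11.26 at week 3 and 11.17 and 12.18 at week 4. Every HOXA9+MIY array was thus above every other array, and the control arrays differed least among themselves, with means of 12.89 ± 0.095 (SD, n = 4) in HOXA9+MIY, 11.63 ± 0.493 in HOXA9+MDHD and 11.12 ± 0.691 in HOXA9+MEIS1. HOXA9+MEIS1 was lower by a log2 difference of -1.77 ± 0.301 (SE; adjusted p = 0.0021, limma). On the week 3 arrays alone the difference was -1.55 and not called (adjusted p = 0.0737).

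The Mpo difference of HOXA9+MDHD from HOXA9+MIY was -1.27 ± 0.301 (2.41-fold), which missed the threshold at an adjusted p of 0.0568 although the arrays did not overlap. The call was gained without the second HOXA9+MDHD array of week 4 (-1.49, adjusted p = 0.0131), and also without the second HOXA9+MEIS1 array of week 3 (adjusted p = 0.0366) or the first of week 4 (adjusted p = 0.0346), with a stricter filter (0.0401) and with only the groups compared (0.0332). Between HOXA9+MEIS1 and HOXA9+MDHD the difference was -0.51 ± 0.301 (95% interval -1.16 to 0.15, adjusted p = 0.495) and the arrays overlapped. That size rested on single arrays: it was -0.23 without the first HOXA9+MEIS1 array of week 4, -0.29 without the second HOXA9+MDHD array of week 4 and -0.77 without the second HOXA9+MEIS1 array of week 3. All 15 probe sets of Mpo were called lower in HOXA9+MEIS1 than in HOXA9+MIY and 12 of 15 in HOXA9+MDHD, beside 3.5% and 0.534% of single probe sets over the table. The 14 probe sets above the level filter differed by -2.29 to -1.36 with full-length Meis1 and by -1.67 to -0.91 with the deleted form, so no probe set of the gene went against the others.

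Prtn3 (chr10:79879667-79883174) encodes proteinase 3, a serine protease of the primary granule. It was at 13.43, 13.48, 13.39 and 13.3 on the HOXA9+MIY arrays (week 3 first), at 13.34, 13.3, 13.08 and 13.14 in HOXA9+MEIS1 and at 13.21, 12.97, 13.06 and 13.17 in HOXA9+MDHD. All 4 HOXA9+MDHD arrays lay below all HOXA9+MIY arrays, while those of HOXA9+MEIS1 overlapped the control. The difference was -0.29 ± 0.0569 in HOXA9+MDHD (1.23-fold lower, adjusted p = 0.023, limma) and -0.18 ± 0.0569 in HOXA9+MEIS1 (adjusted p = 0.0634). Between the Meis1 forms it was 0.11 (95% interval -0.01 to 0.24, adjusted p = 0.387).

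The Prtn3 calls turned on single arrays and on the processing. That of HOXA9+MDHD was lost without the first (adjusted p = 0.0712) or second (0.0764) HOXA9+MIY array of week 3, the first of week 4 (0.0818) or the first HOXA9+MDHD array of week 4 (0.067), while its log2 difference stayed between -0.34 and -0.23. A call for HOXA9+MEIS1 was gained without the second HOXA9+MDHD array of week 3 (adjusted p = 0.00571) or of week 4 (0.0357), arrays that lie outside that comparison, and with cyclic loess (0.0434), the mean of probe sets (0.0491) or only the groups compared (0.00387). The HOXA9+MDHD call was also lost with no week term (0.126), with only the groups compared (0.055) and in each week fitted alone (0.0939 and 0.274). In both comparisons 8 of 8 probe sets were below 0 and 2 of 8 were called lower.

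Ctsg (chr14:56099885-56102574) encodes cathepsin G, the other serine protease among the members. It was at 13.6, 13.68, 13.52 and 13.48 in HOXA9+MIY, at 13.69, 13.62, 13.55 and 13.51 in HOXA9+MEIS1 and at 13.64, 13.55, 13.54 and 13.49 in HOXA9+MDHD, so the arrays of the 3 conditions overlapped fully. HOXA9+MEIS1 differed from HOXA9+MIY by 0.023 (95% interval -0.04 to 0.09, adjusted p = 0.75) and HOXA9+MDHD by -0.016 (-0.08 to 0.05, adjusted p = 0.888, limma). These intervals hold for the gene value, which rests mostly on very bright probe sets. Of the 10 probe sets 0 were called between conditions by limma, and 0 of the 3 gene-level contrasts had an unadjusted p under 0.05.

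Srgn (chr10:62493833-62527445) encodes the core protein of serglycin, the proteoglycan on which granule proteases are stored. Its values were 13.37, 13.47, 13.35 and 13.32 in HOXA9+MIY, 13.44, 13.33, 13.36 and 13.41 in HOXA9+MEIS1, and 13.51, 13.29, 13.41 and 13.34 in HOXA9+MDHD. The differences from HOXA9+MIY were 0.0077 (95% interval -0.09 to 0.11, adjusted p = 0.961) and 0.0088 (-0.09 to 0.11, adjusted p = 0.969, limma). No order can be read from these, and their signs turned under several settings given in the closing section.

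These genes sat among the brightest probe sets of the array. Of the probe sets, 9 of 10 for Ctsg, 5 of 9 for Srgn and 4 of 8 for Prtn3 had means above 13 in every condition, a level passed by 0.308% of all probe sets, against 0 of 15 for Mpo. Whether such bright probe sets still report changes in proportion was not tested. The dimmest Ctsg probe set, with a mean of 9.6, differed more than the other 9: by 0.44 in HOXA9+MDHD against HOXA9+MIY (unadjusted p = 0.00204, adjusted p = 0.1, limma), where the others lay between -0.06 and 0.05, and by 0.16 in HOXA9+MEIS1 (adjusted p = 0.587). It was not called, and it is outside the interval of the gene value.

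Fcnb (chr2:28076479-28084910) encodes ficolin B, a lectin of myeloid precursors that binds sugars on microbes. It stood at 9.46, 9.88, 10.11 and 9.57 on the HOXA9+MIY arrays (week 3 first). In HOXA9+MEIS1 it was at 7.25, 7.41, 7.4 and 7.21, all below the other 8 arrays. In HOXA9+MDHD it was at 8.4, 7.63, 8.92 and 9.51, spread between the other conditions with its highest array inside the control range. The means were 9.75 ± 0.294 (SD) in HOXA9+MIY, 8.61 ± 0.796 in HOXA9+MDHD and 7.32 ± 0.105 in HOXA9+MEIS1.

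HOXA9+MEIS1 lay below HOXA9+MIY by a log2 difference of -2.44 ± 0.26 (adjusted p = 7.26e-05, limma), a call kept in every alternative run. HOXA9+MDHD differed from HOXA9+MIY by -1.14 ± 0.26 (2.2-fold lower, adjusted p = 0.0472), and HOXA9+MEIS1 lay below HOXA9+MDHD by -1.3 ± 0.26 (2.46-fold, adjusted p = 0.0137). The HOXA9+MDHD call sat at the threshold: leaving out any array except the second HOXA9+MDHD array of week 4 gave adjusted p-values of 0.0558 to 0.142 with log2 differences of -1.39 to -0.86 over all 12 leave-outs. The call between the Meis1 forms was lost without the second HOXA9+MEIS1 array of week 4 (adjusted p = 0.0514) and with no week term (0.0734). The call of HOXA9+MDHD was also lost under each other scaling (adjusted p = 0.0526 to 0.0621), with no filter (0.0604), the mean of probe sets (0.0587), only the groups compared (0.0995) and no week term (0.213). All 10 Fcnb probe sets were called lower in HOXA9+MEIS1 than in HOXA9+MIY (kept ones by -4.45 to -1.57), 3 of 10 in HOXA9+MDHD, and 9 of 10 between the Meis1 forms (1.53% of all single probe sets). In HOXA9+MEIS1, 4 of the 10 had means below the filter level, so the size of the fall is uncertain at its lower end.

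**Figure D2:**
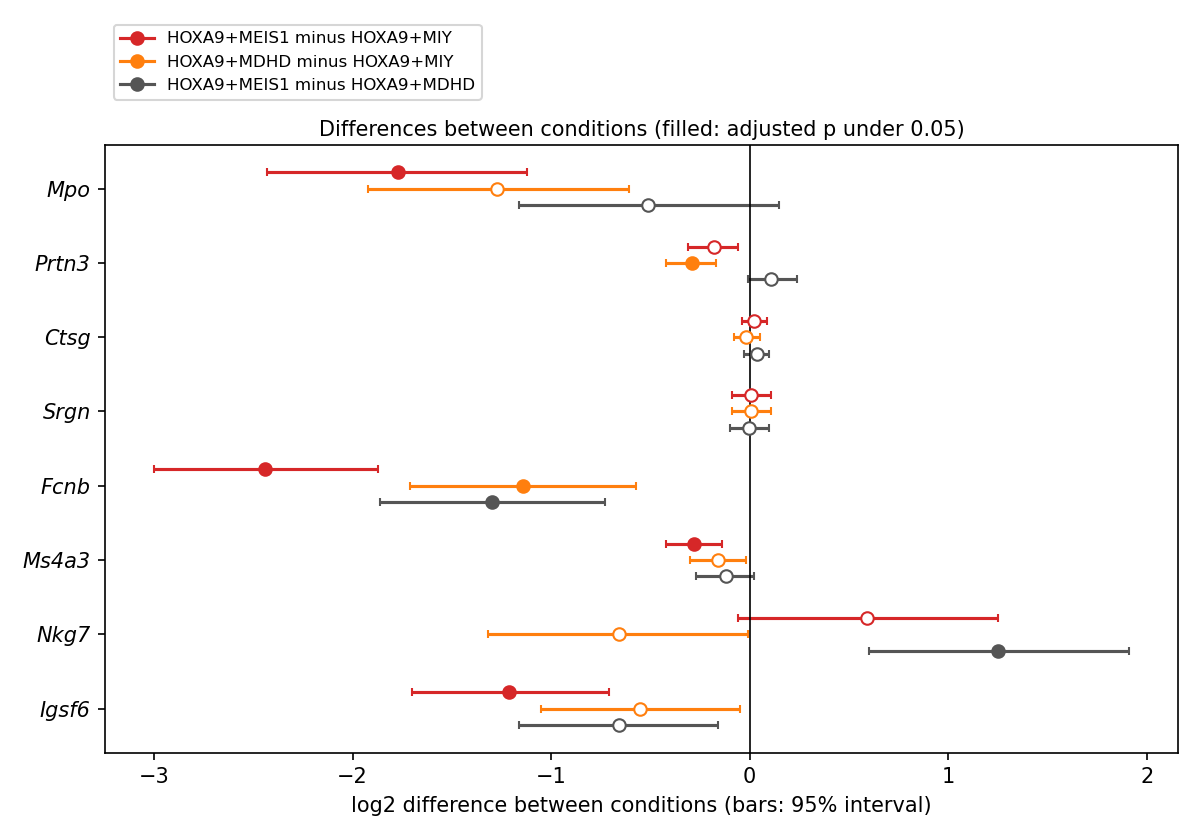
Log2 difference (horizontal axis) between the 3 pairs of conditions for the 8 genes, with 95% intervals as bars and filled points for an adjusted p under 0.05. Fcnb, Mpo and Igsf6 lie furthest below 0 for HOXA9+MEIS1 against HOXA9+MIY, Ctsg and Srgn lie at 0, and Nkg7 lies on opposite sides of 0 for the Meis1 forms, with both of its intervals against HOXA9+MIY wide.

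Igsf6 (chr7:121064067-121074581) encodes an immunoglobulin superfamily receptor of myeloid cells. It was at 11.83, 11.83, 11.89 and 11.71 in HOXA9+MIY, at 11.08, 11.18, 9.73 and 10.47 in HOXA9+MEIS1, and at 11.31, 11.57, 10.66 and 11.54 in HOXA9+MDHD. Every HOXA9+MIY array was above all others, as for Mpo. HOXA9+MEIS1 was lower by a log2 difference of -1.21 ± 0.229 (adjusted p = 0.00437, limma), a call kept in every alternative fit, though not in the week 3 contrast given below. HOXA9+MDHD differed by -0.55 ± 0.229 and was not called (95% interval -1.05 to -0.05, adjusted p = 0.317), although its arrays did not overlap those of HOXA9+MIY. The Meis1 forms differed by -0.66 ± 0.229 (-1.16 to -0.16, adjusted p = 0.159), and by -0.41 without the first HOXA9+MEIS1 array of week 4. Of the 8 probe sets of Igsf6, 7 were called lower with full-length Meis1 (by -1.45 to -0.38 over all 8), and 0 of 8 with the deleted form, where 8 of 8 were below 0.

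Ms4a3 (chr19:11629499-11640851) encodes a membrane-spanning protein that marks granulocyte-monocyte progenitors. It was at 13.14 and 13.26 at week 3 and 12.69 and 12.68 at week 4 in HOXA9+MIY. In HOXA9+MEIS1 it was at 13.08 and 13.08, then 12.28 and 12.19, and in HOXA9+MDHD at 13.13 and 13.03, then 12.57 and 12.39. Within each week the highest arrays were those of HOXA9+MIY, though the conditions overlapped across weeks. The difference of HOXA9+MEIS1 from HOXA9+MIY was -0.28 ± 0.0644 (1.22-fold, adjusted p = 0.0126, limma), and it was lost on the week 3 arrays alone (-0.12, adjusted p = 0.331) and without week in the model (adjusted p = 0.812). HOXA9+MDHD differed from HOXA9+MIY by -0.16 (95% interval -0.3 to -0.02, adjusted p = 0.295).

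Nkg7 (chr7:43437138-43438246) encodes a granule membrane protein best known from natural killer and T cells. It was at 9.79, 10.27, 10.6 and 10.49 in HOXA9+MIY, at 10.11, 11.29, 10.57 and 11.56 in HOXA9+MEIS1, and at 9.63, 8.64, 9.84 and 10.39 in HOXA9+MDHD. The arrays of all 3 conditions overlapped. Nkg7 was the only member called higher in any comparison between conditions, by 1.25 ± 0.3 in HOXA9+MEIS1 over HOXA9+MDHD (2.39-fold, adjusted p = 0.0349, limma), where 2.24% of all genes were called higher. Fcnb was the 1 member called lower there and the 1 whose arrays did not overlap, beside 2.12% and 2.53% of all genes. Against HOXA9+MIY, Nkg7 differed by 0.59 ± 0.3 in HOXA9+MEIS1 (95% interval -0.06 to 1.25, adjusted p = 0.286) and by -0.66 ± 0.3 in HOXA9+MDHD (-1.32 to -0.01, adjusted p = 0.368). The first was 0.32 without the second HOXA9+MEIS1 array of week 3, and the second -0.41 without the second HOXA9+MDHD array of week 3.

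The Nkg7 call between the Meis1 forms was lost in 6 of 12 leave-outs. Without the second HOXA9+MEIS1 array of week 3 it was 0.99 (adjusted p = 0.0919), without the second of week 4 it was 1.12 (0.114), without the second HOXA9+MDHD array of week 3 it was 1.0 (0.0892) and without the first of week 4 it was 1.22 (0.0708). The others were the first (adjusted p = 0.0508) and second (0.054) HOXA9+MIY arrays of week 4. It was also lost with no week term (0.202), with only the groups compared (0.106) and with week 3 (1.56, 0.169) or week 4 (0.95, 0.301) fitted alone. Over the 8 probe sets of Nkg7, 8 of 8 were above 0 with full-length Meis1 and 8 of 8 below 0 with the deleted form against HOXA9+MIY, with 0 called either way, and 7 of 8 were called higher between the forms (by 0.78 to 1.39, beside 1.24% of all single probe sets). Of 13 T and NK cell genes with a value, 8 (Cd2, Cd3d, Cd3g, Gzma, Klrb1c, Klrd1, Klrk1 and Ncr1) had means below the filter level in every condition when all probe sets of a gene were taken, with no level filter. On that unfiltered measure the mean over the list was between 5.88 and 6.19 on every array. Kept probe sets alone gave higher values, such as 8.78 for Klrb1c and 7.53 for Cd2 in HOXA9+MIY. By limma 0 of these 13 were called in any comparison between conditions, with 1, 1 and 3 at an unadjusted p under 0.05. The other 5 were Ccl5, Cd3e, Cd8a, Gzmb and Prf1. Gzmb had means from kept probe sets of 8.2 in HOXA9+MIY, 9.42 in HOXA9+MDHD (6.93 to 10.83) and 7.62 in HOXA9+MEIS1. It differed by -1.8 ± 0.758 between the Meis1 forms (adjusted p = 0.271, limma), on the other side of 0 from Nkg7.

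**Figure D3:**
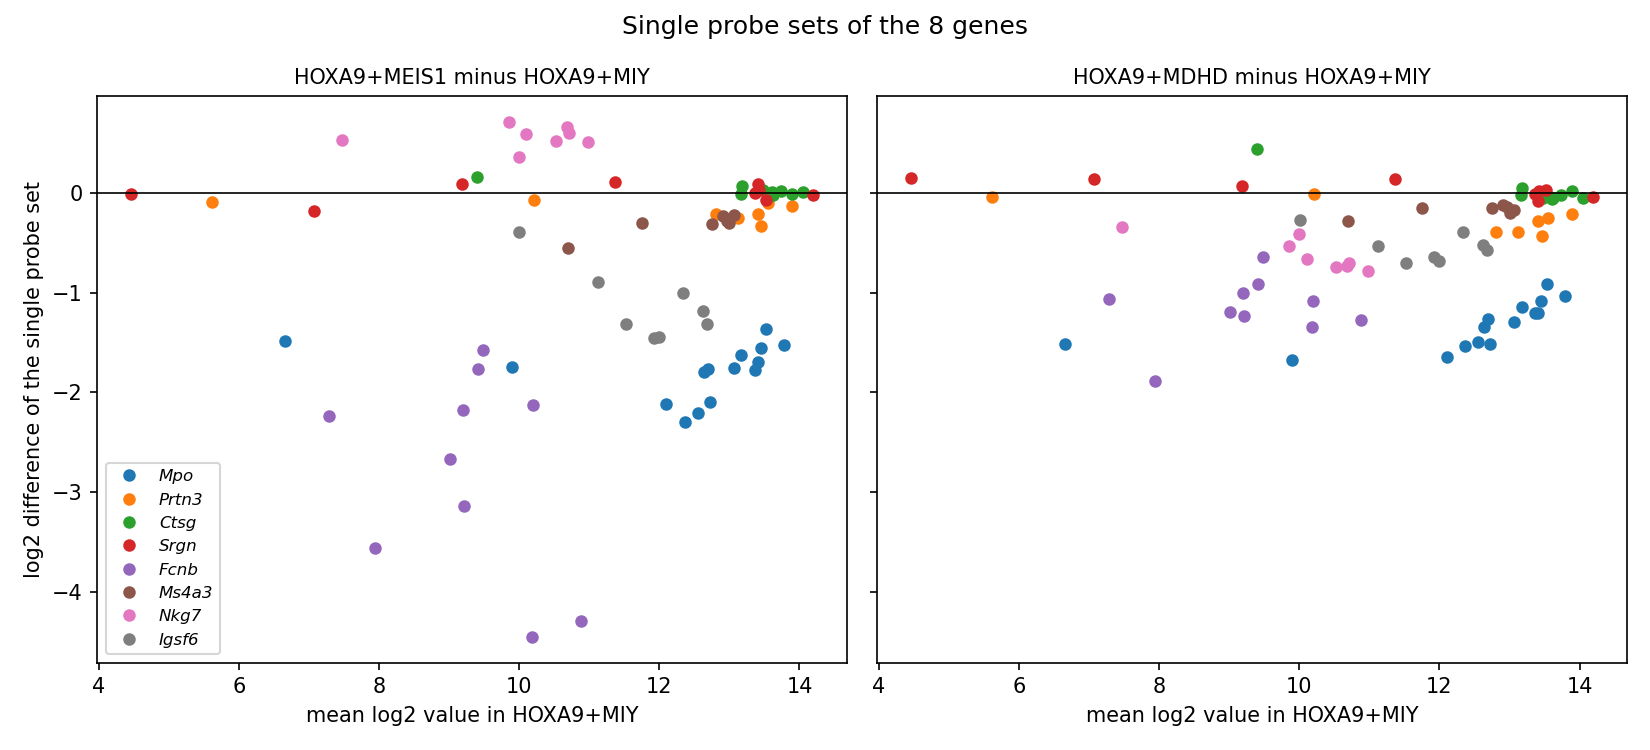
Log2 difference of each single probe set of the 8 genes (vertical axis) against its mean log2 value in HOXA9+MIY (horizontal axis), for HOXA9+MEIS1 and HOXA9+MDHD against HOXA9+MIY. The 15 Mpo and 10 Fcnb probe sets lie below 0 in both panels, and most Ctsg and Srgn probe sets lie near 0 at the bright end.

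Week 4 was then compared with week 3 over all conditions, 6 arrays against 6. Of the 8 genes 2 were called lower and 0 higher at week 4, beside 28.1% and 11.7% of all genes, so the members' share is no larger than that of the table. Ms4a3 ranged from 13.03 to 13.26 with a median of 13.11 at week 3 and from 12.19 to 12.69 with a median of 12.48 at week 4, and was the 1 member with no overlap (17.9% of all genes, lower). It was lower at week 4 by a log2 difference of -0.65 ± 0.0526 (1.57-fold, adjusted p = 1.93e-06, limma), and 7 of its 7 probe sets were called lower (-0.92 to -0.57, beside 23.2% of all single probe sets). Ctsg was lower by -0.11 ± 0.0242 (1.08-fold, adjusted p = 0.0026) with overlapping arrays, a call lost with quantile normalization (-0.047, adjusted p = 0.0987) and with median centring (-0.061, adjusted p = 0.102).

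Marker lists were read by week too, beside 28.1% of all genes called lower and 11.7% called higher at week 4. Of 15 late neutrophil genes 7 were higher and 0 lower at week 4 (median 0.49), of 14 monocyte and macrophage genes 3 were higher and 1 lower, of 10 granulocyte-monocyte progenitor genes 2 were higher and 1 lower, and of 12 mast cell and basophil genes 0 were higher and 4 lower. Given the shares over all genes, the counts outside the late neutrophil list are not read as a shift of those lists. The part of these marker genes in the week differences of Ms4a3, Fcnb and Nkg7 was not tested.

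The other members were not called by week with all arrays and the deposited scaling. Nkg7 differed by 0.62 (adjusted p = 0.0636, limma) and Fcnb by 0.45 (adjusted p = 0.119), both above 0, and Igsf6 by -0.47 (adjusted p = 0.0671). Of the 8 Nkg7 probe sets 5 were called higher (7.46% of all), and a gene-level call was gained with quantile normalization (0.76, adjusted p = 0.0321), median centring (0.67, 0.0481), cyclic loess (0.83, 0.0199) and a stricter filter (0.63, 0.0443), and without the second HOXA9+MEIS1 array of week 3 (0.8, adjusted p = 0.0132) or the first of week 4 (0.78, adjusted p = 0.022). Fcnb was called with cyclic loess (0.6, adjusted p = 0.0456), but was at 0.26 and 0.28 without the second HOXA9+MDHD array of week 3 or of week 4. Igsf6 was called without the first HOXA9+MIY array of week 4 (-0.54, adjusted p = 0.0463) or the second HOXA9+MDHD array of week 4 (-0.59, 0.0159), but differed by -0.3 with cyclic loess and by -0.3 without the first HOXA9+MEIS1 array of week 4. Prtn3 was called without the second HOXA9+MDHD array of week 3 (-0.15, adjusted p = 0.00241) or of week 4 (-0.13, 0.0327) and with the mean of probe sets (-0.12, 0.0457), and was at -0.062 to -0.042 under the other scalings. Mpo, Prtn3 and Srgn differed by -0.071, -0.1 and -0.037, with a direction for Mpo and Srgn that turned under another scaling. Of all genes called by week 29.4% were higher at week 4, and this share was 46.2% after quantile normalization, 41.9% after median centring and 51.2% after cyclic loess.

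Whether a difference between conditions changed from week 3 to week 4 was tested as an interaction. By limma 0 of 8 members and 0 of 20711 genes (0.0%) were called in each of the 3 contrasts, with 2, 1 and 3 members and 1345, 997 and 1551 genes at an unadjusted p under 0.05 (HOXA9+MEIS1 against HOXA9+MIY, HOXA9+MDHD against HOXA9+MIY, and HOXA9+MEIS1 against HOXA9+MDHD). With the spread taken from all 12 arrays, within week 3 Fcnb alone of the members was called lower in HOXA9+MEIS1 than in HOXA9+MIY (-2.34, adjusted p = 0.00127, beside 2.34% of all genes called lower). Mpo differed by -1.55 there and was not called in this fit (adjusted p = 0.105, limma). Within week 4, Fcnb (-2.53, adjusted p = 0.000664), Mpo (-1.99, 0.0273), Igsf6 (-1.71, 0.00454) and Ms4a3 (-0.45, 0.00301) were called lower, beside 3.9% of all genes. Igsf6 differed by -0.71 at week 3 (adjusted p = 0.247, and 0.00857 in a fit of the week 3 arrays alone) and by -1.71 at week 4, and the change between weeks of -1.0 ± 0.383 was not called (adjusted p = 0.743). Fcnb in HOXA9+MEIS1 against HOXA9+MDHD differed by -0.68 at week 3 (adjusted p = 0.333) and by -1.91 at week 4 (adjusted p = 0.00826), and the change of -1.22 ± 0.391 was not called (unadjusted p = 0.0106, adjusted p = 0.632). In HOXA9+MDHD against HOXA9+MIY it differed by -1.65 at week 3 (adjusted p = 0.0549) and by -0.63 at week 4 (adjusted p = 0.538), and the first of these was called when week 3 was fitted alone (0.0398). For HOXA9+MDHD against HOXA9+MIY, 0 of 8 were called at week 3 (0.222% of all genes) or at week 4 (0.126%) by limma, with 3 and 5 at an unadjusted p under 0.05 beside 2255 and 1913 of 20711 genes.

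The other contents of the azurophil granule were then read from a list chosen with earlier results of these data known. Of 12 with a value, HOXA9+MEIS1 had 2 lower and 1 higher than HOXA9+MIY, beside 5.55% and 5.29% of all genes. The median log2 difference of the 12 was -0.1. Lyz2, the lysozyme of myeloid cells, was lower by -2.46 ± 0.148 (5.49-fold, adjusted p = 1.03e-06, limma) and its near-identical copy Lyz1 by -1.59 ± 0.181 (3.01-fold, adjusted p = 0.000119), and probe sets may not tell these copies apart. Aga, a lysosomal amidase that trims glycoproteins, was higher by 0.38 ± 0.0635 (1.3-fold, adjusted p = 0.00184), and was called in neither week fitted alone (0.3 and 0.46, adjusted p = 0.0605 and 0.0638). Ela2, the array's symbol for neutrophil elastase (Elane) and outside the naming rule, was taken after its values were seen because it is a close relative of Prtn3 in the same protease family. It differed by -0.25 ± 0.0797 in HOXA9+MEIS1 (adjusted p = 0.0699) and by -0.3 ± 0.0797 in HOXA9+MDHD (adjusted p = 0.0887), with arrays that did not overlap HOXA9+MIY in either case. A call was gained for the first without the second HOXA9+MDHD array of week 3 (adjusted p = 0.00959) or of week 4 (0.0172), and for the second without that of week 4 (0.00548).

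In HOXA9+MDHD 0 of these 12 were called against HOXA9+MIY by limma, and 4 had an unadjusted p under 0.05, beside 2770 of 20711 genes. Prssl1 (Prss57), another serine protease of the primary granule, had the largest difference at -0.76 ± 0.207 (adjusted p = 0.0984), with no overlap, and it was called without the second HOXA9+MDHD array of week 4 (-0.99, adjusted p = 0.00386). Lyz2 differed by -0.62 ± 0.148 (adjusted p = 0.0583), and was called without that array (-0.82, adjusted p = 4.72e-05) and with a stricter filter (0.042). With 1 week fitted at a time it was -0.89 for week 3 (adjusted p = 0.00746) and -0.35 for week 4 (0.766). At week 4 Gusb, the lysosomal glucuronidase, was lower than at week 3 by -0.78 ± 0.0633 (1.72-fold, adjusted p = 2.05e-06). It was 1 of 2 called lower among the 12, beside 28.1% of all genes.

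Of 16 genes that activate, sort or inhibit the granule proteases, 4 were lower and 1 higher with full-length Meis1 than in HOXA9+MIY. Over all genes 5.55% were called lower and 5.29% higher. By limma 0 of the 16 were called in HOXA9+MDHD, with 5 at an unadjusted p under 0.05, beside 2770 of 20711 genes. The higher gene was Slpi, a secreted inhibitor of elastase and cathepsin G, by 0.84 ± 0.0964 (1.79-fold, adjusted p = 0.000122). Lyst, a regulator of granule size, was lower by -0.62 ± 0.0925 (1.54-fold, adjusted p = 0.00078), with overlapping arrays, and was lost without week in the model (adjusted p = 0.464). Slpi was also higher in HOXA9+MEIS1 than in HOXA9+MDHD, by 0.52 ± 0.0964 (adjusted p = 0.00811), a call lost with no week term (0.264) and when week 4 was fitted alone (0.38, 0.339). Without the HOXA9+MDHD arrays numbered 1 the difference was 0.33. By week 8 of 16 were lower and 4 higher at week 4, where 28.1% and 11.7% of all genes were called lower and higher. Dpp7, a dipeptidyl peptidase of vesicles, was lower by -0.97 ± 0.0593 (1.95-fold, adjusted p = 5.09e-07) and Jagn1, which neutrophil precursors need for secretion, by -0.61 ± 0.0865 (adjusted p = 0.000108; -0.39 with cyclic loess). Lyst (0.82 ± 0.0755, adjusted p = 4.21e-06) and Stx11, a syntaxin of granule fusion (0.62 ± 0.0928, adjusted p = 0.00016), were higher.

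Among 13 transcription factors of the granule programme, 5 were lower and 0 higher with full-length Meis1 than in HOXA9+MIY, beside 5.55% and 5.29% of all genes. By limma 0 of the 13 were called in HOXA9+MDHD, with 3 at an unadjusted p under 0.05, beside 2770 of 20711 genes. Klf4 (-1.45 ± 0.218, adjusted p = 0.000881) and Irf8 (-0.9 ± 0.118, adjusted p = 0.000327), both factors of the monocyte line, were lower by 2.72-fold and 1.86-fold. The Klf4 size depended on the week and the filter: a fit of week 3 alone gave -2.09, one of week 4 alone gave -0.8, and a stricter filter gave -0.31 (adjusted p = 0.0418), while HOXA9+MIY itself had means of 8.6 at week 3 and 7.33 at week 4. Cebpb was lower by 1.43-fold (-0.52 ± 0.0829, adjusted p = 0.00132), and was not called when week 3 was fitted alone (0.0918). Cebpd was called lower too, with means of 7.77 in HOXA9+MEIS1 and 8.39 in HOXA9+MIY. Sfpi1, the array's symbol for Spi1 (PU.1), is outside the naming rule and was taken after its values were seen because its motif is marked in the sequences above: it was lower by -0.41 ± 0.0451 (1.33-fold, adjusted p = 9.18e-05). The other activators named above were not called in HOXA9+MEIS1 against HOXA9+MIY. Their means in HOXA9+MEIS1 and HOXA9+MIY were 10.37 and 10.21 for Cebpa, 10.6 and 10.69 for Runx1, and 10.8 and 10.82 for Cbfb. For Myb they were 11.75 and 11.63. Gfi1, another factor of the list, was not called either, with means of 10.1 and 10.17. Any part of Spi1 in the differences of Fcnb and Mpo was not tested. Klf4 in HOXA9+MDHD differed by -0.93 ± 0.218 (adjusted p = 0.0531), or -0.3 with a stricter filter. Fits of a single week gave -1.5 for week 3 (adjusted p = 0.00317) and -0.36 for week 4 (0.629). With all arrays but one it was called in 3 of 12 leave-outs: without the first HOXA9+MIY array of week 4 (-1.09, adjusted p = 0.0469), the second HOXA9+MEIS1 array of week 4 (0.0451) or the second HOXA9+MDHD array of week 4 (-1.03, adjusted p = 0.0263).

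Between the Meis1 forms 3 of the 13 factors were lower and 2 higher in HOXA9+MEIS1, beside 2.12% and 2.24% of all genes. The 2 called higher were Cebpe and Cebpa, the latter with means of 10.37 in HOXA9+MEIS1 and 10.06 in HOXA9+MDHD. Irf8 was lower by -0.64 ± 0.118 (adjusted p = 0.0079, limma), a call lost with no week term (0.237), without the HOXA9+MDHD arrays numbered 2 (0.0561) and when week 4 was fitted alone (-0.44, 0.176). Cebpb was lower by -0.42 ± 0.0829 (adjusted p = 0.0128), lost with no week term (0.103), without those arrays (0.107) and with week 3 alone (-0.3, 0.36). Cebpe, the factor of the secondary granule stage, was higher by 0.74 ± 0.159 (1.66-fold, adjusted p = 0.0204), a call lost without the first (adjusted p = 0.0721) or second (0.0698) HOXA9+MEIS1 array of week 3, with no week term (0.0808), with only the groups compared (0.0754) and when week 4 was fitted alone (0.34, adjusted p = 0.337, against 1.13 for week 3). By week, Cbfb, the partner of Runx1, was lower at week 4 by -0.44 ± 0.0499 (adjusted p = 1.66e-05; -0.26 with cyclic loess), and Irf8 was higher by 0.45 ± 0.0963 (adjusted p = 0.00231).

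**Figure D4:**
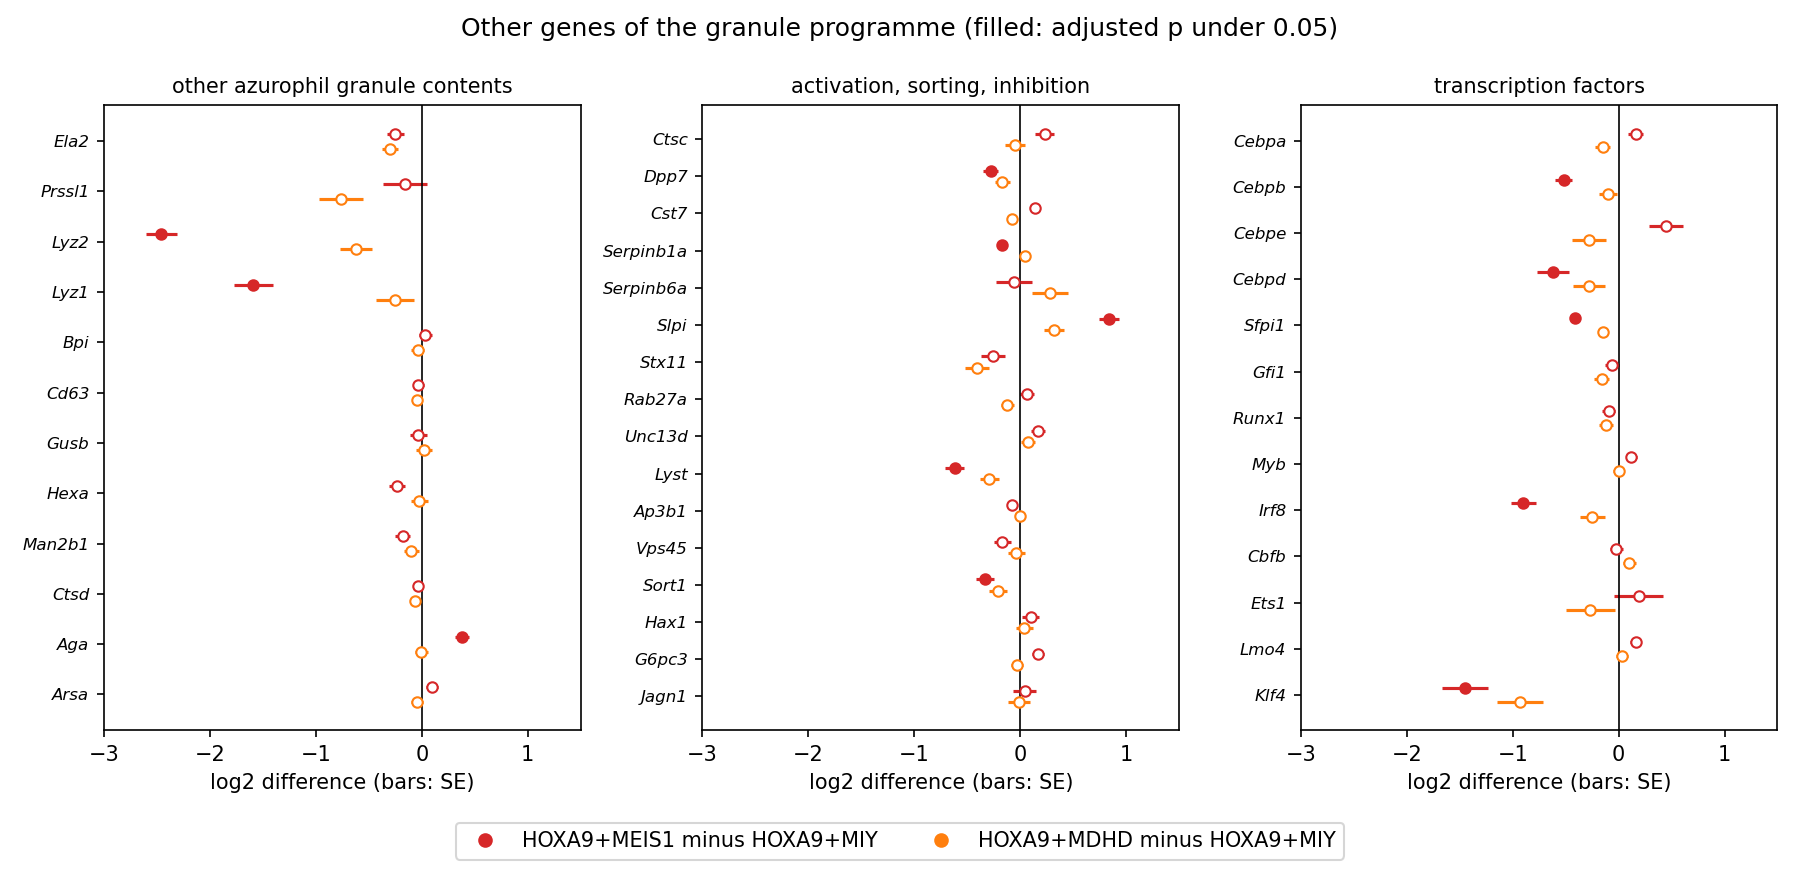
Log2 difference from HOXA9+MIY (horizontal axis, bars are standard errors) of the other azurophil granule contents, the genes that activate, sort or inhibit granule proteases, and the transcription factors of the programme, for HOXA9+MEIS1 and HOXA9+MDHD. Lyz2 at -2.46, Lyz1 at -1.59 and Klf4 at -1.45 lie furthest below 0 with full-length Meis1, and Slpi at 0.84 lies furthest above.

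Marker genes of other cells and stages moved along with Mpo, Fcnb and Igsf6. Of 15 late neutrophil genes 12 were lower in HOXA9+MEIS1 and 5 in HOXA9+MDHD than in HOXA9+MIY, with medians of -1.47 and -0.86, and 0 were higher. Over all genes 5.55% were called lower and 5.29% higher in HOXA9+MEIS1, and 0.999% and 0.913% in HOXA9+MDHD. Levels of the marker lists are again from all probe sets of a gene, with no level filter. The mean over the late neutrophil list was between 9.79 and 10.53 on the HOXA9+MIY arrays, 8.42 and 10.07 in HOXA9+MDHD, and 8.17 and 8.52 in HOXA9+MEIS1, where Ifitm6 and Retnlg were below the filter level (5.93 and 6.92 from kept probe sets). Of 14 monocyte and macrophage genes 10 were lower and 1 higher in HOXA9+MEIS1, and 3 lower and 1 higher in HOXA9+MDHD, with medians of -1.74 and -0.55. Their mean was between 9.97 and 10.18 in HOXA9+MIY, 9.38 and 10.03 in HOXA9+MDHD, and 8.39 and 8.76 in HOXA9+MEIS1, where Ms4a6c was below the filter level. Between the Meis1 forms 7 of the late neutrophil genes were lower and 1 higher in HOXA9+MEIS1 (median -0.76), and 8 of the monocyte and macrophage genes were lower and 1 higher (median -1.0). Of all genes 2.12% were called lower and 2.24% higher there. The part of these cells in the differences of Mpo, Fcnb, Igsf6, Irf8, Cebpb and Cebpe was not tested. The marker lists share genes with the transcription factors. Cebpe is itself in the late neutrophil list, Klf4 in the monocyte and macrophage list, and Cebpa in the granulocyte-monocyte progenitor list.

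The granulocyte-monocyte progenitor genes went both ways. Of 10, HOXA9+MEIS1 had 2 above and 3 below their HOXA9+MIY level at the call threshold, and 1 higher and 2 lower in HOXA9+MDHD, beside the shares of all genes given above. Their mean was between 9.93 and 10.06 in HOXA9+MIY, 10.04 and 10.08 in HOXA9+MDHD and 10.18 and 10.37 in HOXA9+MEIS1. Of the 10, 0 were below the filter level in any condition, which also held for the late neutrophil and the monocyte and macrophage genes in HOXA9+MIY. In HOXA9+MEIS1 against HOXA9+MIY, 1 of 12 mast cell and basophil genes was higher and 0 lower, 1 of 6 eosinophil genes was lower and 0 higher, and 1 of 6 erythroid genes was higher and 0 lower. With 5.29% of all genes called higher and 5.55% lower, 1 call in a list this small is not read as a shift of that list.

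The members did not form a single pattern over the 12 arrays, which share condition and week, so that correlations are given as description only. Mpo had Pearson r = 0.829 with Fcnb and 0.829 with Igsf6, 0.688 with Prtn3 and -0.108 with Ctsg. Ctsg was most like Ms4a3 among the members (r = 0.773), and Ms4a3 and Nkg7 had r = -0.47. Among 2367 other genes with at least 3 probe sets and an SD of at least 0.3, those most like Mpo were Fam69a (0.935), Tgfbi (0.933) and Hvcn1 (0.932), and those most like Fcnb were Clec4a2 (0.982), S100a9 (0.982) and Chi3l3 (0.981).

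For Igsf6 the most alike were Ctdspl (0.952), Tex2 (0.949) and Klraq1 (0.949). For Nkg7 they were Dnajb4 (0.906), Mgll (0.887) and Cebpe (0.881), and for Ms4a3 they were Nmi, Mipep and Tm9sf2, with 0.974 for the last. For Prtn3 they were Cldn15 (0.92), Ccdc125 (0.919) and Tm4sf1 (0.913), and for Ctsg Dhx40 (0.947), Mospd1 (0.941) and Zfp367 (0.924). For Srgn, whose own values varied least with the conditions, Olfr920 reached 0.853 and the next, Dhx40, only 0.685. The genes most like the mean of the 8 members were Prom1 (0.955), Slc40a1 (0.946) and Itgb2l (0.943), followed by Ceacam10, Trem3, Scnn1a, Olfml2b, Hvcn1, Csf3r and Ctdspl (0.934 to 0.919). That mean took values centred on each gene's mean but not scaled. Members that vary more, such as Fcnb and Mpo, thus weigh more in it than Ctsg or Srgn.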

How the data were processed

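RNA of 12 mouse bone marrow cultures was measured on Affymetrix exon arrays. Per the submitters' processing notes the arrays were summarised by RMA through Affymetrix Expression Console, with no version given in the sources used here. The table the authors deposited holds 1 log2 value per probe set and array, with a range of 0 to 14.9332 and array medians of 6.258 to 6.301; the scale was checked from these values. The number of arrays limits the precision. No 2 arrays held identical values, with 0 identical pairs.

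Of 1256831 probe sets, 318760 named 1 gene and 6684 that named several were left out. Probe sets with a mean log2 above 6.2592, the 50th percentile, were kept (233798), and a gene's value was their median polish (at most 50 iterations, tolerance 0.0001), which gave 20711 genes, 2245 of them from 1 probe set. A model with condition and week was fitted to all 12 arrays in R 4.3.3 by limma 3.58.1, using lmFit and eBayes (trend on, tests two-sided). It had 8 residual degrees of freedom and 4.09 prior ones, and the interaction model had 6 residual. The call threshold was an adjusted p of 0.05 (Benjamini-Hochberg over the 20711 genes, or over all 318760 probe sets in the fit of single ones). Errors after ± are standard errors unless given as SD. The procedure was tested on simulated data.

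The members and gene lists were chosen with earlier results of these data known. From each list up to 4 called genes of largest change per contrast, or the 2 of largest change where none was called, could be named, besides the 8 members and, per member, the 3 genes of highest Pearson r over the 12 arrays (10 for the members' mean). Array symbols were matched through RefSeq synonyms where needed (Elane as Ela2, Prss57 as Prssl1, Spi1 as Sfpi1). The promoter motifs were chosen after the sequences were seen. Alternatives were other filters, summaries, scalings, blocks and sets of arrays, and a looser polish tolerance (0.01) chosen after seeing the data. Python 3.11.15, pandas 2.3.3 and matplotlib 3.10.9 made the tables and plots. Positions of probe sets within the genes were not used here.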

Additional observations from a re-analysis of the deposited data

How the results depend on the processing

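The number of the 8 genes called in HOXA9+MEIS1 against HOXA9+MIY was 4, between 4 and 5 over the 12 fits without 1 array, and 2 on the week 3 arrays alone. In HOXA9+MDHD against HOXA9+MIY it was 2, between 0 and 3 without 1 array, 1 with no filter on dim probe sets, the mean of probe sets, quantile normalization, median centring, cyclic loess, only the groups compared or the week 3 arrays alone, and 0 with no week term, with the HOXA9+MDHD arrays numbered 1 left out or on the week 4 arrays alone. In HOXA9+MEIS1 against HOXA9+MDHD it was 2, between 0 and 2 without 1 array, 0 with no week term, with the HOXA9+MDHD arrays numbered 1 left out or on the week 3 arrays alone, and 1 with those numbered 2 left out, with only the groups compared or on the week 4 arrays alone. For week 4 against week 3 it was 2, between 2 and 4 without 1 array, and 4 with cyclic loess, the replicate block or with the HOXA9+MDHD arrays numbered 2 left out. The looser polish tolerance, chosen after seeing the data, left these 4 counts within 1.5 times.

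Signs turned only for differences that were not called. Mpo by week was 0.0098 with quantile normalization, 0.062 with cyclic loess and 0.062 with the HOXA9+MDHD arrays numbered 1 left out, and -0.22 to 0.11 without 1 array. Prtn3 between the Meis1 forms was -0.0046 on the week 4 arrays. Ctsg in HOXA9+MDHD against HOXA9+MIY was 0.024 with the mean of probe sets, 0.0014 with quantile normalization, 0.0021 with median centring, 0.021 with the HOXA9+MDHD arrays numbered 2 left out, 0.011 on the week 4 arrays, and -0.032 to 0.0073 without 1 array. Srgn in HOXA9+MEIS1 against HOXA9+MIY was -0.0024 with no filter, -0.00082 with a stricter one, -0.036 on the week 3 arrays, and -0.0075 to 0.037 without 1 array. In HOXA9+MDHD against HOXA9+MIY it was -0.066 with the HOXA9+MDHD arrays numbered 1 left out, -0.023 on the week 3 arrays, and -0.031 to 0.054 without 1 array. Between the Meis1 forms it was 0.00085 with the looser tolerance, 0.073 with the HOXA9+MDHD arrays numbered 1 left out, 0.01 on the week 4 arrays, and -0.046 to 0.039 without 1 array. By week it was 0.0019 with quantile normalization, 0.013 with median centring and 0.014 with cyclic loess. The cause of these changes was not tested.

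In the replicate block the numbers of the labels were taken as blocks. Blocks were week and number for comparisons of conditions, and condition and number for the comparison of weeks. With them 4, 2, 2 and 4 members were called in the comparisons of HOXA9+MEIS1 and HOXA9+MDHD against HOXA9+MIY, of the Meis1 forms and of the weeks. In HOXA9+MDHD against HOXA9+MIY, Fcnb lost its call (adjusted p = 0.0829) and Mpo gained one (0.0416, and 0.0373 with a random block, whose estimated correlation was negative at -0.123), while by week Nkg7 (0.0218) and Igsf6 (0.048) gained one. Arrays of the same number and week had residual correlations of -0.112 to 0.133, so the numbers were not taken to pair them.

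Over all genes, 2246 calls for HOXA9+MEIS1 against HOXA9+MIY became 904 with no week term, 917 on week 3 and 850 on week 4 arrays. For HOXA9+MDHD against HOXA9+MIY, 396 became 37 with no week term, 612 with a random block, 242 and 1143 with the HOXA9+MDHD arrays numbered 1 or 2 left out, 162 with only the groups compared, 240 and 11 on the arrays of week 3 and week 4, and 140 to 992 without 1 array. Between the Meis1 forms, 902 became 293 with no week term, 539 with only the groups compared, 391 and 221 on the arrays of week 3 and week 4. Interactions, at 0 calls, reached 30 for HOXA9+MDHD against HOXA9+MIY and 36 between the Meis1 forms without 1 array, and 2, 1 and 3 between the forms with no filter, a stricter filter and the mean of probe sets. With 4 arrays a condition, small differences of a variable gene are not resolved, and bright or dim probe sets limit what a difference can show.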

Other observations

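Within HOXA9+MEIS1, Mpo was higher on the array numbered 2 than on that numbered 1 by 1.13 at week 3 and by 1.15 at week 4 on the log2 scale. Nkg7 differed in the same direction by 1.17 and 0.99, and Igsf6 by 0.1 and 0.74. In HOXA9+MDHD the corresponding Mpo differences were -0.65 at week 3 and 1.01 at week 4. The other 5 members did not share this: in HOXA9+MEIS1 Fcnb differed by 0.16 and -0.2, Prtn3 by -0.04 and 0.06, Srgn by -0.11 and 0.04, Ctsg by -0.06 and -0.04, and Ms4a3 by 0.0 and -0.09. These are differences between single arrays, with no test.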
